A study of Danio rerio with 12 samples.

Results

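Ovarian follicles of the primary growth stage from zebrafish heterozygous for a disrupted copy of cdkn1a were compared between females of 8 months post-fertilization (mpf) and of 50 days post-fertilization (dpf). The 6 libraries, 3 at each age, were chosen by their labelled genotype and age from the 12 of the series. All fish were of the AB strain, the tissue was labelled follicle, and the heterozygotes carried 1 intact and 1 disrupted allele of cdkn1a (cdkn1a +/-), disrupted by CRISPR/Cas9 per the title of the series. The other 6 libraries came from wild-type fish (cdkn1a +/+) of the same stage and ages, and served to ask whether an age effect in heterozygotes differed from that in wild type. Heterozygotes were used because homozygous mutants die as embryos, per the series description, so cells of every heterozygous group still carried 1 intact copy. RNA from whole follicles was sequenced in bulk, so the oocyte and its follicle cells were read together. Whether the 3 replicates of a group came from separate fish is not stated, so the p-values measure the spread between these samples. No label gives a sampling or sequencing date, so age cannot be told apart from any such difference between the ages.

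In the primary growth stage the oocyte, arrested in the prophase of the first meiotic division, enlarges before it takes up yolk. It stores messenger RNA and protein for the embryo, builds the Balbiani body that gathers germ plasm, and begins to make the egg coat, while a layer of follicle cells forms around it. The gene cdkn1a encodes p21, an inhibitor of cyclin-dependent kinases that holds cells before S phase. The comparison asks how follicles of the same named stage differ between young and older females when 1 copy of cdkn1a is lost. Symbols are given as the annotation writes them, many in capitals as for human genes, and a gene ID is added where duplicated genes share a symbol.

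Total estimated counts ran from 31806697 to 38176388 in the heterozygous libraries of 50 dpf and from 43003225 to 96839220 in those of 8 mpf. At 50 dpf 18903 to 19510 genes had at least 1 count, against 19272 to 21771 at 8 mpf. The 100 most counted genes took 32.4 to 36.3% of the counts at 50 dpf and 27.0 to 28.2% at 8 mpf. Libraries of 1 age correlated at 0.962 to 0.989 in log2 CPM (CPM, the usual per-library unit, here of the TMM-scaled library size), and libraries of different ages at 0.911 to 0.949. Replicate 1 of 50 dpf stood apart from the other heterozygous libraries, with the lowest scaling factor (0.757, against 0.893 to 1.0 in the other 5) and the largest share of counts in the top 100 genes. Counting error is small at these totals for highly counted genes and larger for genes of low count, the targeted gene among them. Where a gene has a count of 0, its transcript could still amount to 3 counts. The targeted gene was low in every heterozygous library, at 0.45, 0.422 and 0.519 CPM at 50 dpf and 0.397, 0.651 and 0.583 CPM at 8 mpf. These ranges overlap, and the age difference did not pass the test (log2 fold change 0.22 ± 0.29 (SE), edgeR adjusted p = 0.55; exact two-sided permutation p = 0.4, where 3 against 3 cannot go below 0.1). Wild-type follicles held 3.58 ± 0.259 CPM at 50 dpf and 0.858 ± 0.24 CPM at 8 mpf (SD, n = 3), a log2 fold change of -2.04 ± 0.25 (adjusted p = 2.2e-05), and the age effects differed between the genotypes (difference 2.26 ± 0.38, adjusted p = 0.0019). Markers of the labelled stage were present, with figla, ZAR1, buc and the egg coat genes among them.

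Most genes tested differed between the ages in heterozygous follicles. Of 18834 genes, 10158 (53.9%) passed an adjusted p of 0.05, of which 5364 (28.5%) were higher at 8 mpf and 4794 (25.5%) were lower. Adjusted p here is the Benjamini-Hochberg adjusted p of edgeR's quasi-likelihood test over all genes tested, and fold changes are log2 of 8 mpf over 50 dpf with their standard error (SE). In 11810 genes (62.7%) the CPM of the 3 young and the 3 older libraries did not overlap, so a lack of overlap is common here. The split into higher and lower depends on the scaling of the libraries. The median of all genes was 0.01 with TMM, 0.23 with library size alone and -0.15 with upper quartile scaling, where 6664 genes rose and 3442 fell, and 4394 rose and 6031 fell, respectively. The gene lists described here are read against the 28.5% and 25.5% of all genes.

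Genes for very large proteins were mostly higher at 8 mpf and genes for very small ones mostly lower, across unrelated functions. Of 61 tested genes for very large proteins of mixed function, 50 were higher at 8 mpf and 2 lower, with a median log2 fold change of 1.87 (wild type 1.82). They include HERC1, a giant ubiquitin ligase (8.24, 11.9 and 14.4 CPM at 50 dpf, 58.3, 59.8 and 50.1 CPM at 8 mpf), and VPS13C, a lipid transfer protein (5.05, 6.44 and 8.61 CPM, then 34.6, 35.1 and 28.7 CPM). An exception was RYR1 (ENSDARG00000023797), the calcium release channel of muscle, with 33, 34.6 and 34.5 CPM and then 15.7, 13.3 and 15.1 CPM (-1.21 ± 0.11, adjusted p = 2.5e-06). Of 74 genes for very small proteins of mixed function, 5 were higher and 44 lower, with a median of -0.53 (wild type -0.58). The summed CPM of the large group was 767 to 1338 at 50 dpf and 3539 to 4186 at 8 mpf, and the lowest value was that of replicate 1 of 50 dpf. Without that replicate the large group had 50 members higher (median 1.75), and the small group 38 lower (median -0.39). Both groups were written after first results had been seen, and lengths of transcripts were not used. The part of length in the changes of the functional lists was not tested. The medians of both size groups are given here and are not repeated beside each functional list. The size of the protein is noted beside only some of the genes named. A gene without such a note may also encode a large or a small protein.

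**Figure D1:**
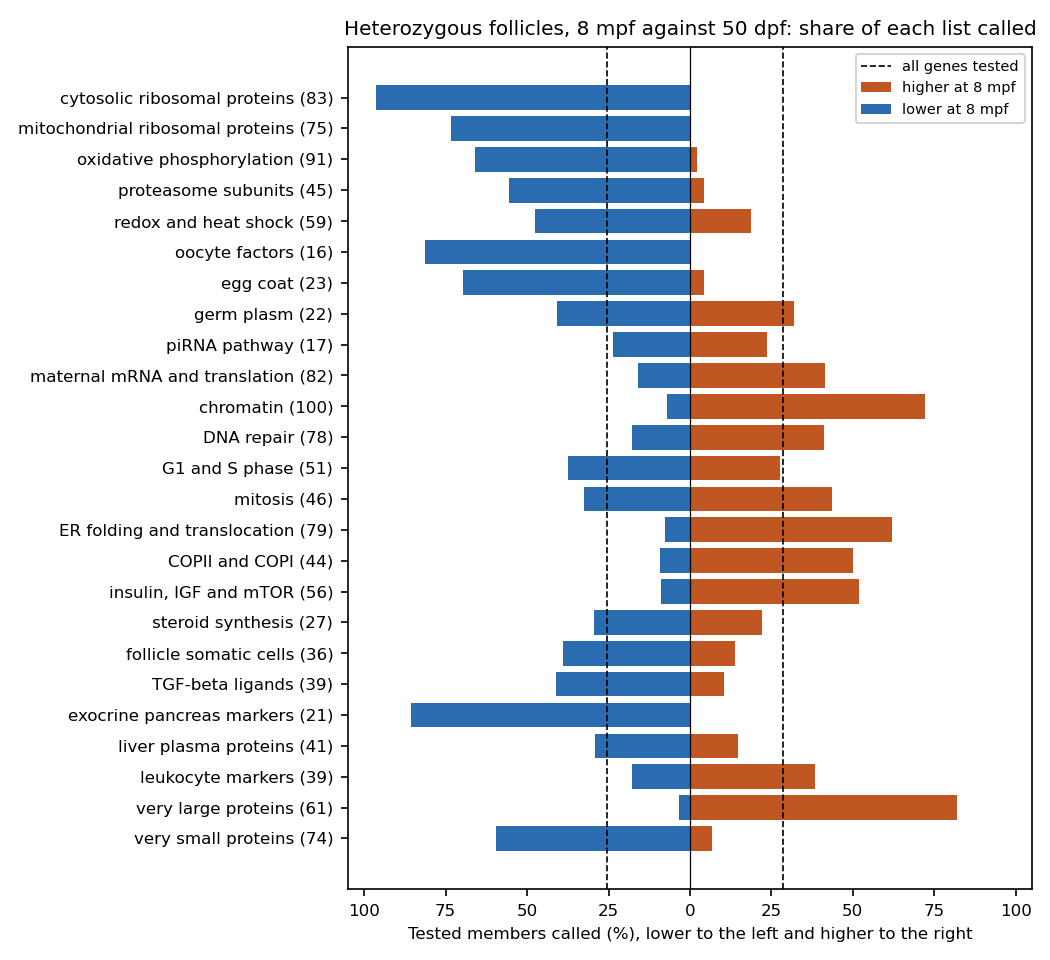
Bars give the percentage of tested members of each gene list called lower (left, blue) and higher (right, orange) at 8 mpf in heterozygous follicles, with the number tested in parentheses and dashed lines at 25.5% and 28.5%, the shares of all genes. Ribosomal proteins, oocyte factors and egg coat genes lie to the left, and chromatin, ER folding and very large proteins to the right.

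The largest single changes, among genes with a mean of at least 5 CPM at the higher age and no overlap between the ages, were in genes of many kinds. PHLPP1, a phosphatase that acts on the kinase AKT, went from 0.312, 0.634 and 0.58 CPM at 50 dpf to 24.6, 21.2 and 19.2 CPM at 8 mpf (5.4 ± 0.43, adjusted p = 1.5e-06). The Golgi tether golgb1, a very large protein, went from 0.623, 0.81 and 3.45 CPM to 65.9, 65.5 and 58 CPM (5.24 ± 0.47, adjusted p = 3.1e-06). Replicate 3 of 50 dpf was well above the other young libraries for golgb1. For both genes the older libraries lie far above all the young ones. The others of the 8 with the largest rise were CAMTA1 (ENSDARG00000007824), CEP170B (ENSDARG00000074636), pho, rsf1b.1 (ENSDARG00000068640) and the pair CLPB and clpb, a mitochondrial disaggregase, with log2 fold changes of 4.48 to 6.43. CLPB and clpb may share reads, so the level of each is uncertain. At the other end, P2RX4 (ENSDARG00000042452), an ATP-gated ion channel, stood at 26.1, 25.9 and 73.8 CPM at 50 dpf and 0.248, 0.535 and 0.146 CPM at 8 mpf (-7.22 ± 0.61, adjusted p = 1.9e-06). Replicate 3 of 50 dpf was well above the other young libraries, and the older ones were all under 1 CPM. ELF3, an epithelial transcription factor, fell from 8.79, 6.94 and 5.71 CPM to 0.0992, 0.186 and 0.375 CPM (-4.91 ± 0.57). The others of the 8 with the largest fall were GAMT, which makes creatine, the homeobox gene hoxb1b, the transporter slc22a16, the potassium channel kcnt2a, and PDE9A and TFAP2E, with log2 fold changes of -3.54 to -3.69.

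Some genes changed with very little spread. SLITRK5 (ENSDARG00000074153), a synaptic adhesion protein, rose from 2.11, 1.65 and 1.77 CPM to 16.5, 18.2 and 17.5 CPM (3.24 ± 0.14, adjusted p = 7.5e-08). The transcription factor TFAP2E fell from 8.55, 8.2 and 7.85 CPM to 0.579, 0.768 and 0.667 CPM (-3.62 ± 0.15, adjusted p = 6.9e-08), and snai2, a zinc finger repressor known from cell migration, from 28, 21.7 and 20.4 CPM to 2.41, 2.35 and 2.24 CPM (-3.32 ± 0.13, adjusted p = 6.9e-08). Within each age the 3 libraries of these genes lie close together. Genes were named in part by the smallest p, so this closeness follows in part from the choice. AANAT, which makes the precursor of melatonin, fell by 3.23 on the log2 scale (15 ± 1.05 to 1.58 ± 0.253 CPM, SD, n = 3), and the cyclic GMP phosphodiesterase PDE9A (-3.69 ± 0.17) and the repressor BCL6 (-2.14 ± 0.10) fell too. Of the 18 tested genes of the snail, twist, zeb and AP2 families, 2 rose and 4 fell. The median of the families was -0.11, and 0.14 with library size alone.

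Most genes for cytosolic ribosomal proteins were lower in the older follicles. Of 83 cytosolic ribosomal protein genes 80 fell (96.4%, against 25.5% of all genes) and 0 rose, with a median of -1.14. Their summed CPM was 40945 to 66333 at 50 dpf and 21154 to 22147 at 8 mpf, so that every older library lay under every young one. RPL10, a protein of the large subunit, went from 1241, 998 and 829 CPM to 304, 283 and 255 CPM (-1.86 ± 0.17, adjusted p = 2.8e-06). Replicate 1 of 50 dpf was the highest library for RPL10 and the 3 older ones lay close together. Without that replicate 79 of the genes fell, with a median of -0.90. The wild-type median was -0.97. These genes encode small proteins, and the median of the very small group was -0.53.

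Nuclear genes of mitochondria also fell. Of 75 mitochondrial ribosomal protein genes 55 fell and 0 rose (median -0.58), a count that came to 36 fallen and 2 risen with library size alone. Of 91 nuclear genes of oxidative phosphorylation 60 fell and 2 rose (median -0.66; with library size alone 52 fell and 9 rose; median -0.46 without replicate 1 of 50 dpf). COX5A, a subunit of cytochrome c oxidase, stood at 163, 147 and 115 CPM at 50 dpf and 64.1, 59.9 and 60.7 CPM at 8 mpf (-1.20 ± 0.14, adjusted p = 2.2e-05). SDHA, the large flavoprotein of complex II, went the other way, from 135, 106 and 101 CPM to 152, 143 and 151 CPM (0.39 ± 0.12, adjusted p = 0.014), a call lost with upper quartile scaling and without replicate 2 or 3 of 50 dpf (adjusted p = 0.152, 0.0564 and 0.0553). The highest log2 fold change of the oxidative phosphorylation list was that of a gene named COX5B (4.84), whose level and test are not given here. Proteasome genes divided alike, with 25 of 45 lower and 2 higher (median -0.45). The core subunit PSMA1 fell from 400, 284 and 226 CPM to 114, 111 and 107 CPM (-1.45 ± 0.18, adjusted p = 2.7e-05), and PSMD11 (ENSDARG00000005134) of the lid rose from 23, 21.1 and 23.6 CPM to 43.3, 45.9 and 43.5 CPM (0.97 ± 0.10). The second PSMD11 copy (ENSDARG00000060150) did not pass the test (log2 fold change -0.09).

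Of 59 redox and heat shock genes 28 fell and 11 rose (median -0.30). SOD1, the cytosolic superoxide dismutase, fell from 407 ± 117 to 168 ± 9.47 CPM (SD, n = 3), and gpx4a, which reduces lipid peroxides, and the inducible chaperone hsp70.1 fell as well (log2 fold changes -1.22 and -1.59). Catalase (CAT, 0.75 ± 0.10) and GCLC, which starts glutathione synthesis (1.09 ± 0.09), rose. Glycolysis and the TCA cycle had 15 of 57 members higher and 23 lower, which became 19 and 20 with library size alone. In SLC16A3 (ENSDARG00000045051), an exporter of lactate, levels were 1767, 1397 and 1196 CPM at 50 dpf and 359, 401 and 236 CPM at 8 mpf (-2.13 ± 0.21, adjusted p = 5.3e-06). HK2, which phosphorylates glucose, rose from 169, 177 and 186 CPM to 324, 316 and 285 CPM (0.80 ± 0.10).

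**Figure D2:**
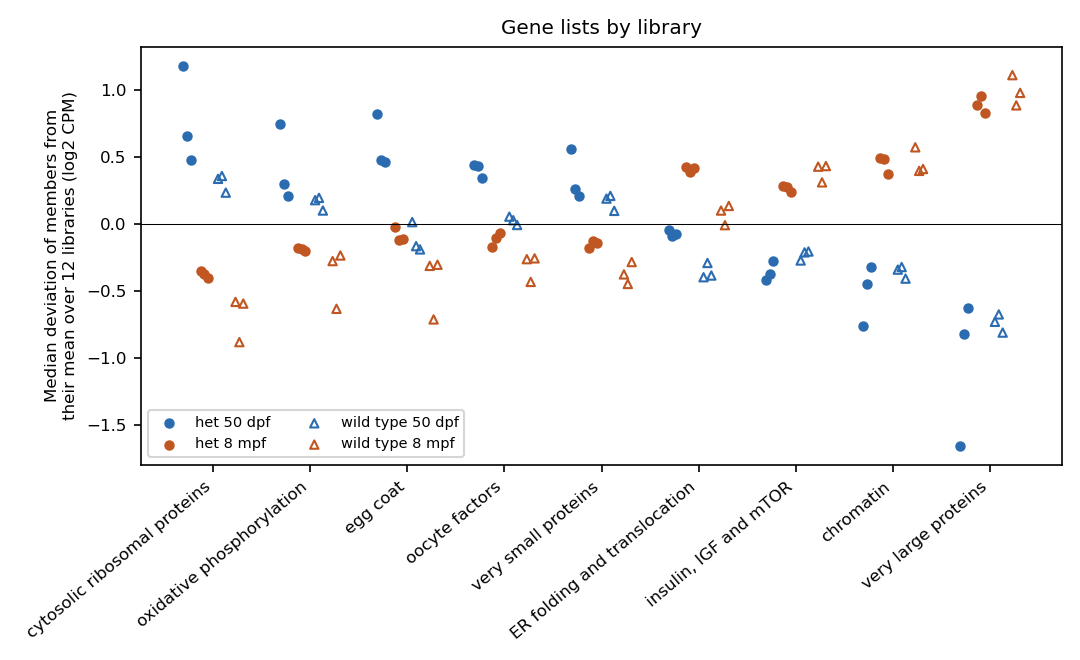
Each point is 1 library: the median, over the members of a list, of the difference between the member's log2 CPM and its mean over the 12 libraries, for heterozygotes (filled circles) and wild type (open triangles) at 50 dpf (blue) and 8 mpf (orange). In heterozygotes the ages do not overlap in any of the 9 lists shown, and replicate 1 of 50 dpf lies farthest out for very large proteins, at -1.65.

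Most of the chromatin genes rose. Of 100 tested members 72 were higher at 8 mpf (72%, against 28.5% of all genes) and 7 lower, with a median of 0.96. ARID1A (ENSDARG00000101710), a subunit of the SWI/SNF remodelling complex, stood at 59, 82.6 and 85.6 CPM at 50 dpf and 294, 292 and 267 CPM at 8 mpf (1.91 ± 0.14, adjusted p = 9.7e-07). KAT6B, a histone acetyltransferase, rose from 1.8, 1.9 and 2.41 CPM to 13.8, 14.8 and 12.6 CPM (2.75 ± 0.16, adjusted p = 2.9e-07), and the demethylase kdm5c from 102, 116 and 128 CPM to 344, 345 and 318 CPM (1.54 ± 0.12). All of these are large proteins. The Polycomb protein phc1 (1.79 ± 0.11) and the bromodomain protein brwd1 (2.54 ± 0.15) were among the 8 genes with the smallest p that rose. Those that fell include the histone variants H2AZ2, from 1059, 753 and 653 CPM to 280, 299 and 282 CPM (-1.52 ± 0.15), and h3f3a (-1.62 ± 0.17), both small, and the methyltransferases EZH2 (-0.48 ± 0.09; adjusted p = 0.0545 with library size alone) and SUV39H1 (ENSDARG00000055753, -0.76 ± 0.11), whose second copy did not pass the test (0.14). The maintenance DNA methyltransferase DNMT1 had 1328, 1440 and 1449 CPM and then 1586, 1675 and 1366 CPM, which overlap and did not pass the test (0.13 ± 0.12, adjusted p = 0.36), while its partner UHRF1 rose (0.63 ± 0.15).

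Genes that bind and translate stored messages rose more often than they fell, in 34 of 82 members against 13 (median 0.28); with upper quartile scaling the counts were 27 and 24. DICER1, which cuts microRNA precursors, rose from 9.24, 16.8 and 18.9 CPM to 62.7, 73.2 and 64.1 CPM (2.15 ± 0.20, adjusted p = 3.6e-06), and the translation scaffold EIF4G1 from 144, 213 and 241 CPM to 646, 600 and 619 CPM (1.64 ± 0.15, adjusted p = 3.4e-06). In both, replicate 1 of 50 dpf was the lowest library. DROSHA, which acts before DICER1, rose by 1.46. The part of protein size in these rises was not tested. Among the genes with the largest gains in CPM were the helicase ddx3xb (715 ± 72.3 to 1475 ± 46.7 CPM, SD, n = 3), the RNA-binding HDLBP and nucleolin, ncl. CPEB1, which controls polyadenylation of dormant messages, fell from 2996, 2515 and 2477 CPM to 1617, 1457 and 1029 CPM (-0.96 ± 0.19, adjusted p = 0.001). Its paralog cpeb1a fell from 10.6, 9.79 and 8.4 CPM to 1.49, 0.861 and 1.39 CPM (-2.92 ± 0.21, adjusted p = 8e-07), and the RNA-binding protein ELAVL2 fell by 1.54 on the log2 scale. EIF4E1B, PABPC1L and YBX1 overlapped between the ages and did not pass the test (-0.10 ± 0.08, 0.29 ± 0.14 and -0.27 ± 0.13). Each passed under some alternative: EIF4E1B fell with upper quartile scaling and PABPC1L rose with library size alone (adjusted p = 0.00915 and 0.0383). YBX1 fell with DESeq2 (adjusted p = 0.0462), with upper quartile scaling (0.00933) and without replicate 1 of 50 dpf (0.0122). PABPC1L also rose without replicate 3 of 50 dpf (adjusted p = 0.041).

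Most genes for protein folding in the endoplasmic reticulum rose. Of 79 genes of endoplasmic reticulum (ER) folding, translocation and glycosylation, 49 were higher and 6 lower (median 0.53), and with upper quartile scaling 38 and 12. HSPA5, the main ER chaperone, stood at 2491, 2559 and 2659 CPM at 50 dpf and 4124, 3737 and 4106 CPM at 8 mpf (0.63 ± 0.10, adjusted p = 0.00025). CANX, a chaperone of glycoproteins, rose from 133, 133 and 151 CPM to 404, 377 and 427 CPM (1.53 ± 0.09, adjusted p = 2.8e-07), with little spread in either age. Its ages did not overlap, as in 62.7% of all genes tested. HYOU1, a stress-induced chaperone (2.02 ± 0.25), CALR (2.01 ± 0.24) and EIF2AK3, the ER stress kinase PERK (1.68 ± 0.12), also rose, and HSP90B1, the ER form of HSP90, rose by 0.55. XBP1, the transcription factor of the unfolded protein response, ran from 481, 851 and 349 CPM to 777, 781 and 810 CPM and did not pass the test (0.50 ± 0.31, adjusted p = 0.2). Without replicate 2 of 50 dpf, the library at 851 CPM, it passed as higher (0.93, adjusted p = 0.0173). Among those that fell were the small translocon subunit SEC61G (-1.02 ± 0.17) and SRP14 of the signal recognition particle (-1.03 ± 0.13). Their proteins are small.

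Genes of vesicle coats rose more often than they fell, with 22 of 44 higher and 4 lower (median 0.32). SEC24D, which selects cargo leaving the ER, rose from 8.88 ± 0.866 to 35.2 ± 1.33 CPM (SD, n = 3; 1.99 ± 0.13, adjusted p = 4e-07), and sec24c rose by 1.98. The small GTPase sar1ab, which starts coat assembly, fell from 22.6, 18.4 and 20.3 CPM to 6.86, 10.1 and 8.53 CPM (-1.27 ± 0.14). The receptor VLDLR, which takes up vitellogenin in oocytes of egg-laying vertebrates, rose from 224, 276 and 318 CPM to 594, 526 and 565 CPM (1.04 ± 0.13, adjusted p = 3.5e-05). The early endosome GTPases RAB5A (ENSDARG00000018602) and RAB5C also rose (1.0 ± 0.11 and 1.0 ± 0.09; the second RAB5A copy did not pass the test, at -0.08), whereas lrp13, a lipoprotein receptor of fish oocytes, overlapped between the ages (0.03 ± 0.11, adjusted p = 0.83). Over all 29 genes of yolk precursors and their uptake 9 rose and 9 fell (median 0.08, and -0.08 with upper quartile scaling). The vitellogenins vtg1 and vtg2, made mainly in liver, fell and are described with the markers of other tissues.

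The insulin, IGF and mTOR list rose in 29 of 56 members and fell in 5 (median 0.69). The receptor IGF1R (ENSDARG00000034434) went from 22.9, 27.3 and 28.1 CPM to 57.3, 59.4 and 54.2 CPM (1.13 ± 0.12, adjusted p = 1e-05), and its duplicate (ENSDARG00000027423) changed by 1.14 ± 0.17. Downstream, the regulatory subunit PIK3R1 rose from 10.5, 14.3 and 15.5 CPM to 42.4, 42.9 and 44.5 CPM (1.69 ± 0.13) and the kinase MTOR from 12.7, 20.2 and 22.7 CPM to 60.9, 59.6 and 55.8 CPM (1.66 ± 0.16, adjusted p = 5.2e-06). RICTOR (ENSDARG00000002020) of the second mTOR complex (1.42 ± 0.11) and TSC2, an inhibitor of mTOR (1.17 ± 0.10), rose as well, so activators and inhibitors moved in the same direction. The median of the very large group was 1.87, and the part of protein size in the rise of this list was not tested. By the test of the difference, the age effect was lower in heterozygotes than in wild type in 2 of the 56 members and higher in 0. Over all genes tested these shares were 6.65% and 6.88%. The ligands igf2b (0.43 ± 0.24, adjusted p = 0.15) and igf3 (-2.73 ± 1.12, adjusted p = 0.056) were low and did not pass the test, with 0.346, 0.493 and 0 CPM and then 0, 0 and 0.0937 CPM for igf3. As a fall, igf3 passed with DESeq2 (adjusted p = 0.0204) and with upper quartile scaling (0.0428). It also passed without replicate 3 of 50 dpf (0.0103) or of 8 mpf (0.0132).

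Transcription factors and stored messages that mark the oocyte were lower at 8 mpf. Of 16 members 13 fell and 0 rose (median -0.50), and 7 fell with library size alone. The transcription factor figla, which drives follicle formation and egg coat genes, stood at 174, 133 and 118 CPM at 50 dpf and 33.6, 34.8 and 31.8 CPM at 8 mpf (-2.08 ± 0.15, adjusted p = 8.7e-07). LHX8, an oocyte homeobox factor, went from 285, 248 and 228 CPM to 126, 131 and 129 CPM (-0.98 ± 0.10, adjusted p = 7.3e-06), and ZAR1, which binds maternal messages, from 2487, 1893 and 1847 CPM to 1135, 1016 and 1227 CPM (-0.88 ± 0.13, adjusted p = 8e-05). The groups did not overlap in any of these, as in 62.7% of all genes tested. GDF9 and bmp15, growth factors secreted by the oocyte, fell by less than 0.5 on the log2 scale (-0.40 ± 0.09, adjusted p = 0.0024, and -0.25 ± 0.08, adjusted p = 0.018), and with library size alone neither passed (adjusted p = 0.161 and 0.799). The call of bmp15 was also lost with no filter on low counts (0.0958) and without replicate 2 of 50 dpf or replicate 1 or 2 of 8 mpf (0.0683, 0.0845 and 0.0978).

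The egg coat list held 23 genes, of which 16 fell and 1 rose (median -0.66), and 14 fell and 4 rose with library size alone. Their summed CPM was 98896 to 132388 at 50 dpf and 63625 to 70802 at 8 mpf. The gene zp2.1 went from 14829, 9922 and 11845 CPM to 6086, 5232 and 5689 CPM (-1.11 ± 0.18, adjusted p = 0.0002), and zp3 from 9579, 7517 and 7902 CPM to 4587, 4060 and 4246 CPM (-0.96 ± 0.16, adjusted p = 0.00024). Nearly identical copies in the zp2 and zp3 clusters may share reads, so the values of single copies are uncertain. The exception was zp3d.1, which rose from 104, 134 and 145 CPM to 186, 166 and 211 CPM (0.55 ± 0.14, adjusted p = 0.0053). The claudin cldnd, a tight junction protein, fell from 13547, 9046 and 7594 CPM to 2779, 2825 and 2668 CPM (-1.87 ± 0.21, adjusted p = 1.6e-05). Replicate 1 of 50 dpf was the highest library for cldnd, zp2.1 and zp3. Without that replicate 17 of the egg coat genes fell and 2 rose. Fewer cells of a type and less RNA per cell cannot be told apart in bulk samples.

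**Figure D3:**
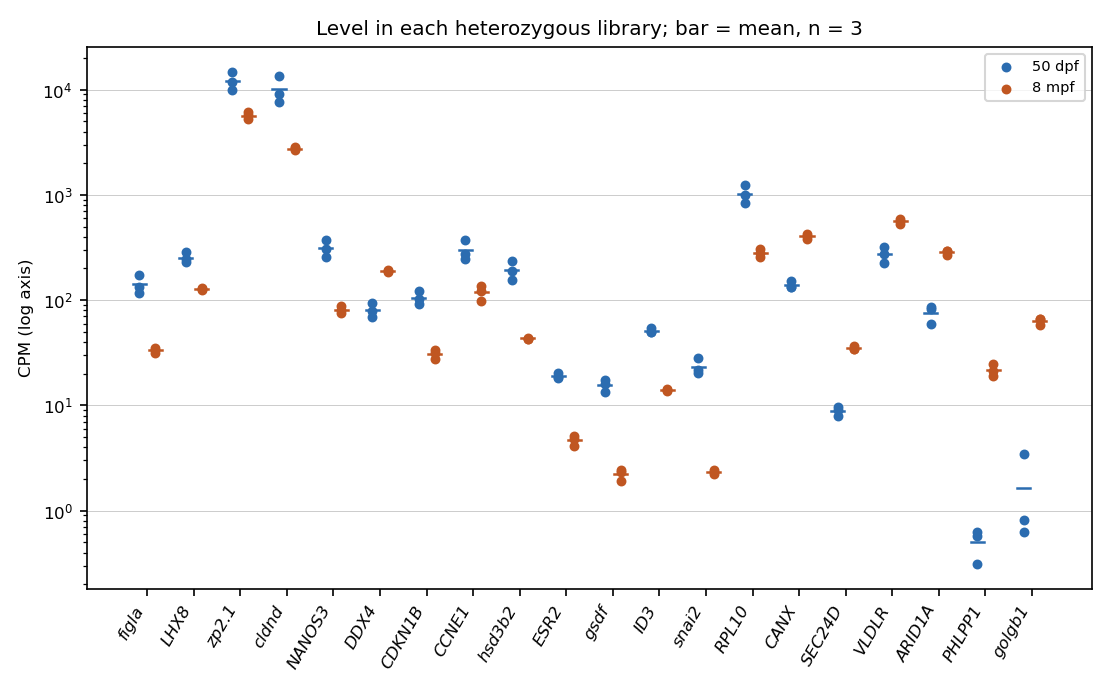
CPM (log axis) of 20 named genes in each heterozygous library at 50 dpf (blue) and 8 mpf (orange), with a bar at the mean of 3. The ages do not overlap for any gene shown. The naming rules required or favoured a lack of overlap, which 62.7% of all genes tested also had. PHLPP1 and golgb1 lie at or under 3.45 CPM in all young libraries.

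Germ plasm genes moved in both directions (31.8% higher and 40.9% lower, beside 28.5% and 25.5% of all genes). Of 22 members 7 rose and 9 fell, against 5 and 10 with upper quartile scaling and 11 and 6 with library size alone (medians 0.08, -0.09 and 0.31). NANOS3, a repressor of translation in germ cells, fell from 373, 305 and 258 CPM to 80.9, 88.6 and 75 CPM (-1.94 ± 0.15, adjusted p = 1.4e-06). DDX4, the germ cell helicase Vasa, rose from 69.6, 79.1 and 94.2 CPM to 188, 193 and 184 CPM (1.22 ± 0.12, adjusted p = 5.6e-06). The Balbiani body organiser buc fell from 2792, 2082 and 2031 CPM to 1662, 1616 and 1707 CPM (-0.47 ± 0.13, adjusted p = 0.0098), DAZL fell by 0.74 on the log2 scale, and macf1a, a giant cytoskeletal linker that acts on the zebrafish Balbiani body, rose from 6.72, 8.63 and 11.1 CPM to 67.1, 75.8 and 57.6 CPM (2.92 ± 0.18, adjusted p = 3.5e-07). In the piRNA pathway, which silences transposons, 4 of 17 genes rose and 4 fell, while 2 rose and 10 fell with upper quartile scaling and 6 and 4 with library size alone. In the main fit 23.5% rose and 23.5% fell, near the shares of all genes. PIWIL2 went from 299, 238 and 222 CPM to 121, 122 and 104 CPM (-1.13 ± 0.14, adjusted p = 3.5e-05), while PIWIL1 overlapped (-0.10 ± 0.08, adjusted p = 0.3). The piRNA factors ASZ1 (-0.92 ± 0.12) and gtsf1 (-0.66 ± 0.11) fell and rnf17 rose (0.73 ± 0.10).

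Meiotic genes also moved in both directions, as did all genes tested (28.5% higher and 25.5% lower). In the list of the chromosome axis and recombination 5 of 24 rose and 7 fell, and with library size alone 7 rose and 6 fell. In the main fit these shares were 20.8% and 29.2%. SYCP1, of the central part of the synaptonemal complex, rose from 1.81 ± 1.21 to 10.4 ± 0.652 CPM (SD, n = 3; 2.51 ± 0.45, adjusted p = 0.00049), and the germline cohesin smc1b from 0.312, 0.352 and 0.947 CPM to 4.78, 4.12 and 3.92 CPM (2.96 ± 0.35). SYCP3, of the lateral axis, fell from 3.53, 2.99 and 4.25 CPM to 1.17, 1.12 and 1.16 CPM (-1.64 ± 0.22, adjusted p = 4.4e-05). SYCP1 and smc1b encode large proteins and SYCP3 a small one. Among regulators of arrest and maturation 10 of 28 rose and 7 fell, and with upper quartile scaling 8 rose and 10 fell. MOS, a kinase of meiotic maturation, fell from 1405, 1007 and 779 CPM to 378, 384 and 375 CPM (-1.49 ± 0.19, adjusted p = 3.2e-05), as did fbxo43, which keeps vertebrate eggs arrested before fertilization, from 904, 642 and 534 CPM to 243, 239 and 222 CPM (-1.56 ± 0.18, adjusted p = 1.7e-05). The inhibitory kinase pkmyt1 rose by 1.44, and gpr3, a receptor that keeps cyclic AMP high in mammalian oocytes, did not pass the test (-0.57 ± 0.27). As a fall, gpr3 passed with the heterozygous samples fitted alone (adjusted p = 0.0305) and with upper quartile scaling (0.0472).

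Cell cycle genes of G1 and S phase rose in 14 of 51 cases and fell in 19, and these counts became 22 and 14 with library size alone and 10 and 23 with upper quartile scaling. In the main fit these shares were 27.5% and 37.3%, beside 28.5% and 25.5% of all genes. CCNE1, the cyclin partner of CDK2 that p21 inhibits, stood at 374, 272 and 245 CPM at 50 dpf and 123, 137 and 97.8 CPM at 8 mpf (-1.32 ± 0.16, adjusted p = 2.8e-05). The replication clamp PCNA fell from 1603, 1174 and 1120 CPM to 651, 612 and 618 CPM (-1.05 ± 0.14), and the germline cyclin CCNA1 (-1.19 ± 0.15) and the licensing factor CDT1 (-0.78 ± 0.08) fell too. CCND1, the cyclin of early G1, rose from 1.52, 1.37 and 0.855 CPM to 6.66, 6.4 and 5.89 CPM (2.34 ± 0.18, adjusted p = 1e-06), and the polymerase subunits POLA1 and POLE, large proteins, by 1.53 and 1.28. The helicase subunit MCM2 overlapped (0.00 ± 0.13, adjusted p = 0.98), though with library size alone its log2 fold change was 0.23 and passed the test. In mitosis 20 of 46 genes rose and 15 fell, with a median of 0.11 that turned to -0.07 with upper quartile scaling, while with library size alone 25 rose and 10 fell. TOP2A, which untangles chromosomes, rose from 166, 201 and 209 CPM to 469, 519 and 441 CPM (1.31 ± 0.10, adjusted p = 1.4e-06), and the proliferation marker mki67, a very large protein, from 37.3, 83.6 and 101 CPM to 343, 408 and 290 CPM (2.23 ± 0.30). The cyclins CCNB1 and CCNB2 fell (-0.63 ± 0.16 and -0.74 ± 0.11), while their kinase CDK1 did not pass the test (0.08 ± 0.09, adjusted p = 0.5).

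Few CDK inhibitors were tested, and the share that fell was near that of all genes. Of 9 tested members of the list 0 rose and 3 fell (33.3%, against 25.5% of all genes). With library size alone 2 rose and 3 fell. CDKN1B (ENSDARG00000054271), the inhibitor p27, went from 122, 103 and 92.7 CPM to 31.3, 33.3 and 27.6 CPM (-1.79 ± 0.15, adjusted p = 1.7e-06). CDKN2D, of the INK4 family, fell from 8.79, 6.2 and 6.35 CPM to 2.15, 1.79 and 1.58 CPM (-1.95 ± 0.23, adjusted p = 1.7e-05), and cdkn1ca, the inhibitor p57, fell by 0.85 on the log2 scale. In all of these the wild-type values fell as well (-1.41, -1.26 and -1.49), and no difference between the genotypes' age effects was called. The duplicate of CDKN1B (ENSDARG00000029018) was under 1 CPM throughout (1.01 ± 0.41, adjusted p = 0.051). It passed as higher with library size alone (adjusted p = 0.0185) and with limma on log2(value + 1) (0.0464). It also passed without replicate 3 of 50 dpf (0.0415) or of 8 mpf (0.0348). The cyclin CCNG1, induced by DNA damage, fell from 653, 631 and 648 CPM to 410, 392 and 366 CPM (-0.73 ± 0.10), and RRM2B, which supplies nucleotides for repair, rose from 5.3, 4.93 and 4.22 CPM to 11.4, 12.8 and 13.1 CPM (1.37 ± 0.14).

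DNA repair and checkpoint genes rose in 32 of 78 cases and fell in 14; with upper quartile scaling 24 rose and 22 fell, and with library size alone 41 and 9. The recombination mediator brca2 went from 8.59, 15.9 and 23.3 CPM to 120, 131 and 113 CPM (2.92 ± 0.28, adjusted p = 4.8e-06), and the damage kinase ATM from 10.1, 16.8 and 17.5 CPM to 48.3, 51.2 and 42.7 CPM (1.68 ± 0.17, adjusted p = 6.4e-06). Both are very large proteins, and replicate 1 of 50 dpf was their lowest library. CHEK1, a kinase of moderate size, rose from 24.1, 24 and 29.1 CPM to 52.6, 52 and 52.4 CPM (1.02 ± 0.10, adjusted p = 4.2e-06), whereas chek2, a second checkpoint kinase, fell from 164, 143 and 133 CPM to 106, 109 and 115 CPM (-0.42 ± 0.09, adjusted p = 0.0016; 0.076 with library size alone). RPA3, a small subunit of the protein that coats single-stranded DNA, fell by 1.07 on the log2 scale.

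The apoptosis list, with 22 of 52 genes higher and 8 lower, is carried by copies of 1 gene. It holds 13 genes named HTRA2, a mitochondrial protease, all of which rose (median 1.76). Their mean CPM at the higher age ran from 0.83 to 15.4. Their sequences may be alike and share reads, so their values are uncertain and not independent. Of the other 39 members 9 rose and 8 fell, with a median of -0.01, a split made after these values had been seen. BIRC6, a very large inhibitor of apoptosis, rose from 12.4, 20.2 and 23.2 CPM to 79.4, 83.6 and 69.2 CPM (2.06 ± 0.19). The survival factor mcl1a fell from 1040, 826 and 703 CPM to 481, 492 and 461 CPM (-0.84 ± 0.16, adjusted p = 0.00059), and BCL2L1 rose by 0.53. BAX and APAF1, which act in the mitochondrial pathway, did not pass the test (-0.20 ± 0.12 and -0.01 ± 0.13).

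More genes of the follicle's somatic cells fell than rose at 8 mpf. Of 36 tested members 14 fell (38.9%, against 25.5% of all genes) and 5 rose (13.9%, against 28.5%), while 17 did not pass the test. Without replicate 3 of 50 dpf 10 fell and 5 rose, and with library size alone 11 fell and 6 rose. With limma on log2(value + 0.1) 12 fell and 7 rose. The median of the list was -0.81 in the main fit, and the highest log2 fold change was that of INHBB (6.22). INHBB missed at least 1 of the conditions set for the largest single changes, and its level is not given here. The summed CPM was 295 to 322 at 50 dpf and 245 to 267 at 8 mpf. The growth factor gsdf, made by granulosa cells in fish, stood at 17.3, 15.9 and 13.5 CPM and then 1.93, 2.44 and 2.32 CPM (-2.80 ± 0.18, adjusted p = 4.5e-07). GJA1, a gap junction protein, went from 22.4, 18.7 and 9.26 CPM to 2.61, 2.49 and 2.44 CPM (-2.74 ± 0.33, adjusted p = 2.3e-05), and NOTCH3 from 5.4, 8.87 and 8.52 CPM to 1.97, 1.86 and 2.06 CPM (-1.95 ± 0.25). Their ages did not overlap, as in 62.7% of all genes tested. Defining markers of granulosa cells were near the limit of detection, with amh at 0.727, 1.34 and 1.19 CPM and then 0.512, 0 and 0.354 CPM (-1.84 ± 0.71, adjusted p = 0.044), FOXL2 (ENSDARG00000042180) at 0.692, 0.634 and 0.733 CPM and then 0.0992, 0.14 and 0.156 CPM (-2.35 ± 0.45, adjusted p = 0.00072), and inha, a subunit of inhibin, at 0.45, 1.2 and 1.44 CPM and then 0.463, 0.372 and 0.531 CPM (-1.16 ± 0.38, adjusted p = 0.021). The calls of amh and inha were each lost under several alternatives, with adjusted p of up to 0.111 and 0.115, among them the heterozygous samples fitted alone (0.0757 and 0.0536). SOX9 (ENSDARG00000043923) rose from 2.91, 3.73 and 3.45 CPM to 20.7, 16.9 and 19.2 CPM (2.49 ± 0.16, adjusted p = 5.2e-07). The second SOX9 copy (ENSDARG00000003293), named after its values had been seen, went the other way at a very low level, from 1.35, 0.317 and 0.153 CPM to 0, 0 and 0.0417 CPM (adjusted p = 0.0013). RSPO1, a Wnt agonist of the early ovary, rose from 1.52, 2.53 and 2.38 CPM to 6.4, 6.35 and 7.03 CPM (1.62 ± 0.17). HHIP, which binds Hedgehog ligands, changed by 0.86 ± 0.16 (adjusted p = 0.00072).

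Steroid synthesis had 6 of 27 genes higher and 8 lower, and 9 higher and 7 lower with library size alone (with upper quartile scaling, 5 and 11). In the main fit these shares were 22.2% and 29.6%, beside 28.5% and 25.5% of all genes. CYP11A1 (ENSDARG00000002347), which cuts the side chain of cholesterol, fell from 585, 509 and 494 CPM to 328, 331 and 344 CPM (-0.66 ± 0.09, adjusted p = 4.8e-05). The next enzyme, hsd3b2, went from 235, 190 and 157 CPM to 43.2, 44.1 and 43 CPM (-2.16 ± 0.16, adjusted p = 8.4e-07), and CYP17A1, of the following step, did not pass the test (-0.15 ± 0.08, adjusted p = 0.14). HSD17B12, an enzyme of long-chain fatty acids and estrogen synthesis, fell from 767, 545 and 528 CPM to 204, 199 and 140 CPM (-1.76 ± 0.19). The aromatase CYP19A1 was under 1 CPM in every library (-2.62 ± 0.68, adjusted p = 0.0057), as was the cholesterol carrier STAR (-0.83 ± 0.67, adjusted p = 0.32). Of the gonadotropin and steroid receptors 3 of 15 rose (20.0%) and 5 fell (33.3%). ESR2 (ENSDARG00000016454), an estrogen receptor, fell from 20.2, 18.8 and 18.2 CPM to 4.76, 4.12 and 5.09 CPM (-2.03 ± 0.12, adjusted p = 2.9e-07). The second ESR2 copy (ENSDARG00000034181) was under 0.3 CPM, with 0.104, 0 and 0 CPM and then 0.215, 0.279 and 0.271 CPM, and rose by the test (adjusted p = 0.044), a call lost under other settings (adjusted p of up to 0.128). The glucocorticoid receptor NR3C1 rose by 1.40. FSHR and lhcgr, the gonadotropin receptors, were under 0.3 CPM in all heterozygous libraries.

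Ligands of the TGF-beta family and their antagonists fell in 16 of 39 cases and rose in 4 (median -0.48). The highest log2 fold change of the list was that of INHBB (6.22), which missed at least 1 condition set for the largest single changes. BMP6 went from 14.2, 15.3 and 14.3 CPM to 3.11, 2.02 and 2.88 CPM (-2.44 ± 0.31, adjusted p = 3.7e-05), and BAMBI (ENSDARG00000055381), a decoy receptor that BMP signalling induces, from 24.6, 20.3 and 20.0 CPM to 2.76, 2.91 and 2.51 CPM (-2.99 ± 0.14, adjusted p = 1.1e-07). BMP4 was under 2 CPM and fell by 1.49 on the log2 scale. The receptors BMPR1A (both copies, ENSDARG00000105045 with 1.16 ± 0.13 and ENSDARG00000019728 with 0.66 ± 0.10) and ACVR2A (0.83 ± 0.10) rose. The lowest log2 fold change of their list was that of a gene named BMPR2, also a receptor (-2.22), whose level and test are not given here. The signal carrier SMAD2 did not pass the test (0.20 ± 0.11). The targets of BMP signalling ID1 and ID3 fell. ID1 stood at 40.1, 31.9 and 25 CPM and then 8.63, 8.86 and 9.11 CPM (-1.87 ± 0.16, adjusted p = 1.8e-06), and ID3 at 54.3, 50.0 and 50.1 CPM and then 13.9, 14.2 and 13.7 CPM (-1.89 ± 0.09, adjusted p = 1.5e-07). ID2, of the same family, fell by 0.49 on the log2 scale. Over the 33 receptors, SMADs and targets 8 rose and 10 fell, and 12 rose and 7 fell with library size alone. By a log2 change of at least 1, 1 of them rose and 6 fell in the main fit, beside 2826 and 2261 of all 18834 genes tested.

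The MAPK, EGF and Wnt lists each turned with the scaling. In MAPK feedback and immediate early genes 13 of 56 rose and 19 fell, against 19 and 13 with library size alone. The phosphatase DUSP7 rose from 7.03, 6.41 and 5.8 CPM to 29.7, 29.4 and 33 CPM (2.26 ± 0.12, adjusted p = 1.9e-07), the adaptor SHC1 from 4.05, 4.44 and 4.09 CPM to 19.5, 18.9 and 17.5 CPM (2.15 ± 0.12) and the kinase BRAF by 1.51. The transcription factors ETV4 and JUN fell (-1.23 ± 0.12 and -1.93 ± 0.24), and FOS and DUSP1 overlapped (-0.17 ± 0.11 and -0.13 ± 0.15). Of 18 tested genes of the EGF family and Kit, 1 rose and 3 fell, against 3 and 1 with library size alone. The ligand hbegfa fell from 188, 243 and 203 CPM to 120, 124 and 127 CPM (-0.77 ± 0.10, adjusted p = 4.6e-05). In the Wnt list 8 of 41 rose and 13 fell, against 11 and 9 with library size alone. APC, a large scaffold of the destruction complex, rose from 14.8, 31.4 and 37.5 CPM to 130, 147 and 123 CPM (2.26 ± 0.26), and CTNNB1, beta-catenin itself, fell (-0.41 ± 0.12, adjusted p = 0.015; 0.137 with library size alone and 0.0775 without replicate 3 of 8 mpf).

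Junction genes rose in 11 of 43 cases and fell in 15 (25.6% and 34.9%, beside 28.5% and 25.5% of all genes). Besides cldnd, the claudin cldn7b fell from 533, 437 and 436 CPM to 224, 239 and 152 CPM (-1.19 ± 0.17), and the scaffold TJP1, a large protein, rose from 13.4, 18.1 and 22.4 CPM to 54, 51.3 and 43.6 CPM (1.47 ± 0.17). In the lysosome list 21 of 73 rose and 18 fell, against 15 and 23 with upper quartile scaling and 35 and 13 with library size alone. In the main fit these shares (28.8% and 24.7%) were near the 28.5% and 25.5% of all genes. The cathepsin ctss2.1 went from 5999, 4631 and 3996 CPM to 1781, 1782 and 1642 CPM (-1.49 ± 0.17, adjusted p = 1.6e-05), and CTSB, a lysosomal protease, from 1782, 1585 and 1335 CPM to 986, 999 and 926 CPM (-0.69 ± 0.14). NPC1, a large protein that moves cholesterol out of lysosomes, rose by 1.52, and its small partner NPC2 (ENSDARG00000090912) fell by 0.78 on the log2 scale. Sterol genes rose in 13 of 38 cases and fell in 11, against 13 and 16 with upper quartile scaling and 17 and 9 with library size alone. The regulator srebf2 rose by 1.43, HMGCS1 by 1.34, and SQLE (ENSDARG00000079946), which makes squalene epoxide, fell from 5.44, 6.23 and 6.17 CPM to 0.661, 0.651 and 0.885 CPM (-3.00 ± 0.19, adjusted p = 4.5e-07). Of 42 genes of amino acid transport and ATF4 targets 7 rose and 13 fell (median -0.17, and 0.05 with library size alone), with the transcription factor atf4a itself falling from 854, 745 and 662 CPM to 434, 395 and 426 CPM (-0.85 ± 0.13).

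Transcripts of other tissues were present at low level and some moved with age. Exocrine pancreas markers fell in 18 of 21 genes (median -1.91), and their sum went from 346 to 535 CPM at 50 dpf to 88.5 to 160 CPM at 8 mpf. The trypsinogen prss1 stood at 73.2, 57.9 and 43 CPM and then 18.5, 11.5 and 12.6 CPM (-2.03 ± 0.24, adjusted p = 2.1e-05). Vitellogenins fell too, with vtg1 from 365, 301 and 283 CPM to 186, 154 and 150 CPM (-0.95 ± 0.14, adjusted p = 9.8e-05) and vtg2 from 164, 124 and 120 CPM to 55.2, 42.9 and 36.6 CPM (-1.60 ± 0.16, adjusted p = 5.2e-06). Their copies may share reads. The liver plasma protein list fell in 12 of 41 genes and rose in 6, and its sum overlapped between the ages (64.5 to 77.1 and 68 to 95.3 CPM). Leukocyte markers rose in 15 of 39 genes and fell in 7 (median 0.62) while their sum was 101 to 119 and then 80.2 to 114 CPM. By a log2 change of at least 1, 14 of these genes rose and 4 fell. At that threshold 2826 of all 18834 genes tested rose and 2261 fell. Of the defining leukocyte markers, ptprc had 0, 0.211 and 0.855 CPM and then 1.57, 0.535 and 0.864 CPM, and did not pass the test (1.44 ± 0.76, adjusted p = 0.13). Without replicate 3 of 50 dpf it passed as higher (3.23, adjusted p = 0.00875). LCP1 rose from 1.18, 1.62 and 1.44 CPM to 6.35, 4.16 and 3.36 CPM (1.71 ± 0.27). Values of the other defining markers are not given here. Stromal genes fell in 18 of 52 cases and rose in 12 with sums of 267 to 298 and 268 to 297 CPM, and the collagen col1a1a fell from 10.6, 9.96 and 9.74 CPM to 4.43, 4.72 and 4.04 CPM (-1.20 ± 0.13). Endothelial markers fell in 6 of 24 cases and rose in 1 (89.2 to 98.8 and 72 to 84 CPM in sum), erythrocyte and thrombocyte markers fell in 5 and rose in 5 of 17 (96.4 to 102 and 55.1 to 89.5 CPM) and muscle and neural markers fell in 8 and rose in 6 of 26 (69.9 to 74.6 and 73.5 to 80.0 CPM). With library size alone 6 muscle and neural markers fell and 8 rose, and 3 erythrocyte markers fell and 5 rose. Hemoglobin hbaa1 was 35.6, 33.1 and 22.7 CPM and then 30.1, 20.5 and 15.4 CPM, which overlap (-0.47 ± 0.24, adjusted p = 0.12). As a fall, hbaa1 passed with upper quartile scaling (adjusted p = 0.0388). It also passed without replicate 3 of 50 dpf (0.0449) or replicate 1 of 8 mpf (0.0169). The part of other tissues in the changes of the follicle genes was not tested.

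**Figure D4:**
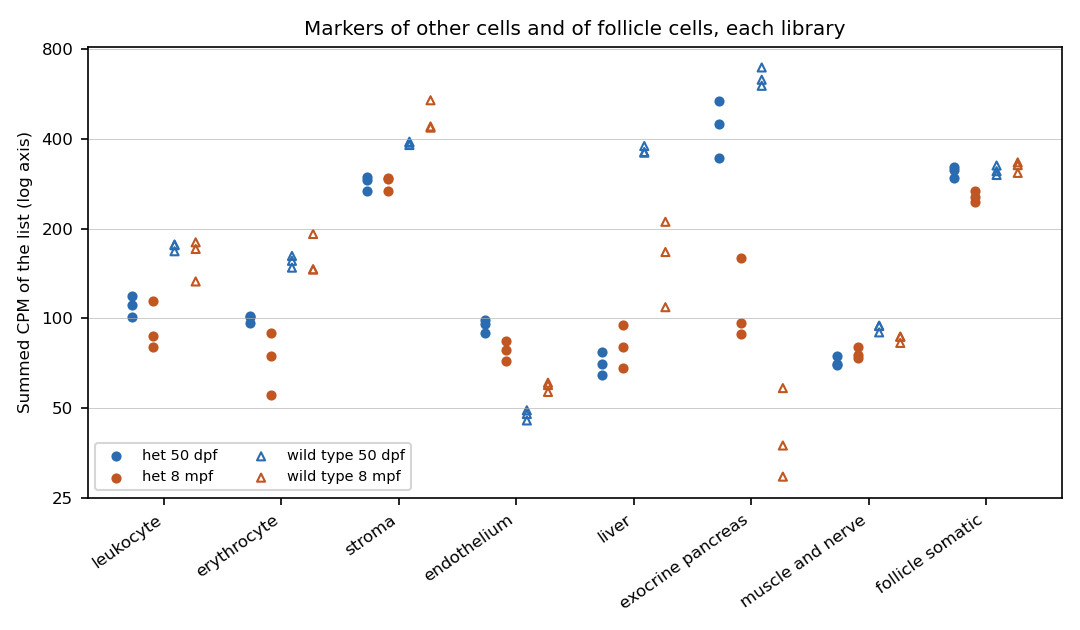
Summed CPM (log axis) of marker lists in each library, for heterozygotes (filled circles) and wild type (open triangles) at 50 dpf (blue) and 8 mpf (orange). Exocrine pancreas markers are lower at 8 mpf in both genotypes, and the liver list is higher in wild type, most of all at 50 dpf.

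Genes called in both genotypes nearly all moved the same way. Across all genes tested the log2 fold changes of the genotypes correlated with a Pearson r of 0.51 and a Spearman rho of 0.66, given as a description since genes are not independent. In wild type 10397 genes passed the test (55.2%), of which 5397 (28.7%) were higher and 5000 (26.5%) lower at 8 mpf, and 7343 genes passed it in both genotypes, with 1 direction shared in 7010 of them (95.5%). The age effects differed between the genotypes in 2548 genes (13.5%), with 1295 (6.88%) higher and 1253 (6.65%) lower in heterozygotes. This count depended on the libraries used: it rose to 4118 without replicate 2 of wild type at 8 mpf. With any other single library left out it was 1699 to 2712. In 333 genes the genotypes moved in opposite directions, each past the test, with 158 of them higher and 175 lower with age in heterozygotes.

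The genes with the firmest differences were of varied function. The acid nuclease dnase2 of lysosomes rose in heterozygotes from 9.14, 9.33 and 10.7 CPM to 35.3, 34.3 and 37.7 CPM (1.88 ± 0.11) and fell in wild type from 13.1 ± 0.787 to 3.86 ± 0.352 CPM (difference 3.64 ± 0.16, adjusted p = 1.9e-07). SQLE did the reverse, with 3.56 ± 0.597 and then 6.41 ± 0.921 CPM in wild type (difference -3.84 ± 0.26, adjusted p = 3.3e-06). The actin crosslinker actn3b, typical of fast muscle, rose in heterozygotes from 4.64, 5.53 and 5.68 CPM to 12.4, 11.7 and 12.3 CPM and fell in wild type from 16 ± 0.776 to 1.05 ± 0.337 CPM (difference 5.15 ± 0.28). The Tudor protein TDRD7 of germ granules and the adhesion protein CNTNAP5 (ENSDARG00000075189) likewise rose in heterozygotes (0.57 ± 0.15 and 0.97 ± 0.13) and fell in wild type (-3.28 ± 0.16 and -2.35 ± 0.14). The opsin opn7d did not pass the test in heterozygotes (-0.19 ± 0.12) and fell in wild type (-4.65 ± 0.16; difference 4.46 ± 0.20, adjusted p = 1.9e-07). On the other side, the receptor FLT4 of lymphatic vessels fell in heterozygotes (-0.58 ± 0.11) and rose in wild type (2.45 ± 0.12; difference -3.03 ± 0.16, adjusted p = 7.5e-07). The sodium channel scn1laa, the potassium channel kcnj21 and klhl35 fell in heterozygotes (log2 fold changes -1.82, -2.13 and -2.16), against log2 fold changes of 0.26, 0.04 and 0.34 in wild type. For P2RX4 the difference was larger but less firm (-7.29 ± 0.98, adjusted p = 0.00048). P2RX4 was high in the heterozygous libraries of 50 dpf and stood at 0.242 ± 0.103 and 0.268 ± 0.149 CPM in wild type at 50 dpf and 8 mpf.

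Some of the changes described for heterozygotes were larger there than in wild type. For snai2 the wild-type change was -1.52 (difference -1.80 ± 0.17, adjusted p = 4.2e-05), for ID3 -0.39 (difference -1.5 ± 0.13, adjusted p = 1.9e-05) and for BAMBI -1.46 (difference -1.54 ± 0.19, adjusted p = 0.00024). PIWIL2 did not pass the test in wild type (-0.11 ± 0.14; difference -1.02 ± 0.20, adjusted p = 0.0058). For figla, hsd3b2, NANOS3, CANX and golgb1 no difference was called (0.20 ± 0.21, 0.66 ± 0.21, -0.53 ± 0.21, 0.06 ± 0.12 and 0.72 ± 0.60). Transcripts of liver differed in their age effect, in that 29 of 41 liver plasma protein genes had a higher and 1 a lower age effect in heterozygotes, beside 6.88% and 6.65% of all genes. The list fell in 38 of its genes in wild type (median -5.12), from sums of 360 to 379 CPM to 109 to 211 CPM. Transferrin, tfa, held 44.8 ± 1.86 CPM in wild type at 50 dpf, 2.23 ± 0.0499 CPM at 8 mpf, and 5.91 ± 0.987 and 4.07 ± 0.43 CPM in heterozygotes (difference 3.79 ± 0.19, adjusted p = 5.5e-07). Exocrine pancreas markers also fell by more in wild type, in 16 of 21 genes by this test, from sums of 604 to 696 to 29.4 to 58.3 CPM.

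**Figure D5:**
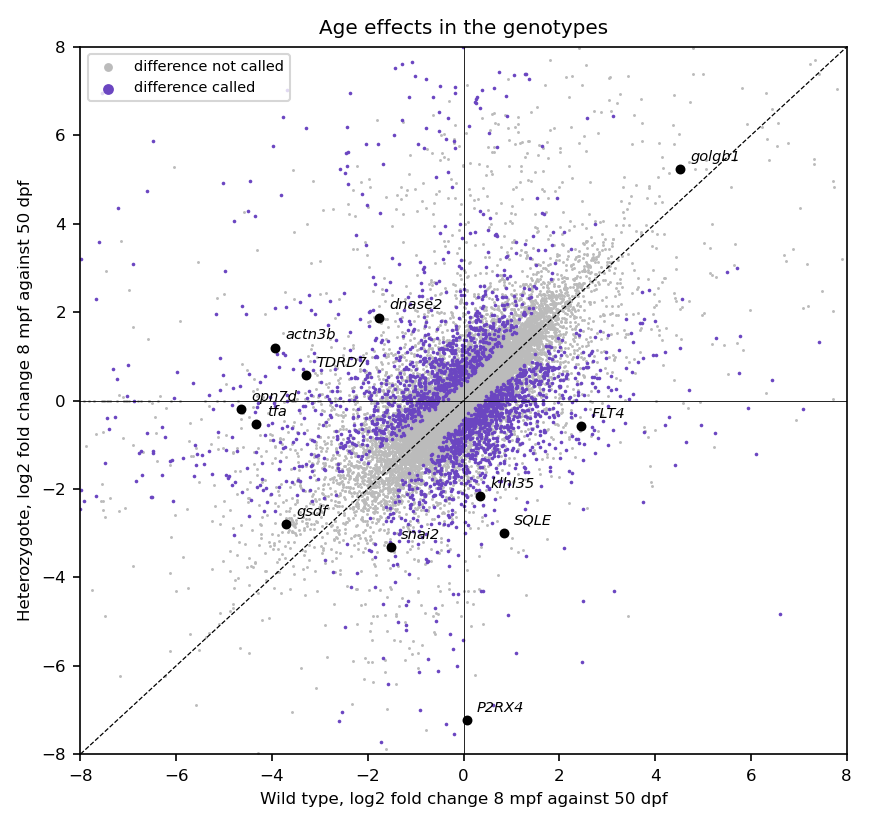
Log2 fold change with age (8 mpf against 50 dpf) in heterozygotes (vertical axis) against wild type (horizontal axis) for each gene tested, with the dashed line at equality. Purple points are the 2548 genes whose age effects differed by the test, named genes are marked in black, and 74 genes outside the axes are not drawn.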

How the data were processed

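Bulk RNA was extracted with TRIzol from primary growth follicles and made into libraries with the NEBNext Ultra II Directional kit, per the labels' protocols. The submitters' processing notes name bcl2fastq, FastQC 0.11.5, HISAT2, StringTie, DESeq2 and the genome build GRCz11, without their order. The annotation release, the strand setting and the handling of reads that map to several genes are not given in the sources used here. The deposited estimated counts per gene are whole numbers and not normalized; that they are estimates was read from the values. The deposited normalized signal is those counts divided by factors that for many genes are specific to the gene, and it served for an alternative with limma 3.58.1 on log2(value + 1) or log2(value + 0.1).

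Of 32057 gene IDs 28988 had a symbol, and no sample column was left unused (0). Estimated counts were fitted with edgeR 4.0.16 (R 4.3.3) by its quasi-likelihood test, with TMM scaling, edgeR's filter on low counts (18834 of 26339 genes with a count kept), all 12 libraries and 1 mean per group. The age effect in heterozygotes, that in wild type and their difference were contrasts of this fit, with Benjamini-Hochberg adjustment over all genes tested and a threshold of 0.05. SE was taken as the absolute log2 change over the root of the F statistic. CPM are counts relative to the TMM-scaled library size, are not per length, and so do not compare levels between genes. Alternatives were DESeq2 1.42.0, other scalings and filters, heterozygous samples alone, a replicate block and each library left out. The fit was tested on simulated data.

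The comparison, members and 44 gene lists were chosen with earlier results of these data known, so no list count is independent support, and no set test was run. The 2 lists by protein size and the split of the HTRA2 copies were added after the values had been seen. Named genes are the 8 of smallest p and the 8 of largest fold change in each direction (adjusted p under 0.05, log2 change of at least 1, no overlap, at least 5 CPM in the higher group), the 8 of largest difference in CPM, core and leading members of each list, and the 6 of smallest p in each direction for the difference between genotypes; the text gives part of them. Motifs in promoters were not analysed here, and some genes the rule names are not reported here.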

Additional observations from a re-analysis of the deposited data

Results flagged for a closer look

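The age effects of 31 genes named in the report differed between heterozygotes and wild type by at least 1 on the log2 scale, with an adjusted p under 0.05 in edgeR's test of the difference itself. Each value given here is the log2 age effect in heterozygotes less that in wild type, with 3 libraries in each of the 4 groups.

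Genes with a higher age effect in heterozygotes included the muscle protein actn3b (5.15), the opsin opn7d (4.46), the germ granule gene TDRD7 (3.85), transferrin tfa (3.79), the lysosomal nuclease dnase2 (3.64) and CNTNAP5 (3.32). CAMTA1, which rose in heterozygotes by 6.43, held 0.506 ± 0.234 CPM in wild type at 50 dpf and 4.64 ± 0.461 CPM at 8 mpf (SD, n = 3; difference 3.31). The targeted gene cdkn1a differed by 2.26, SLITRK5 by 1.84 and the adaptor SHC1 by 1.31. Transcripts made mainly outside the ovary were among them, with 1.61 for vtg1, 1.56 for vtg2 and 1.33 for prss1.

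Genes with a lower age effect in heterozygotes were led by P2RX4 (-7.29), SQLE (-3.84) and FLT4 (-3.03), followed by klhl35 (-2.50), PDE9A (-2.30), kcnj21 (-2.17), scn1laa (-2.08) and kcnt2a (-1.68). The same direction was found in snai2 (-1.80), BAMBI (-1.54), ID3 (-1.5), SOX9 (-1.38) and ID1 (-1.07). SOX9, which rose in heterozygotes by 2.49, held 1.85 ± 0.183 CPM in wild type at 50 dpf and 27.2 ± 4.81 CPM at 8 mpf (SD, n = 3). The second SOX9 copy differed by -5.78, a fitted value that depends on the prior count because its libraries are near 0. The polyadenylation factor cpeb1a (-1.60), the calcium channel RYR1 (-1.39), the lactate exporter SLC16A3 (-1.06) and PIWIL2 (-1.02) complete the list.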

How the results depend on the processing

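The counts of genes that changed, rose and fell with age kept within 1.5 times of their main values under every alternative run except a fold threshold: with single heterozygous libraries left out, 8824 to 9825 changed (10158 with all), 4778 to 5177 rose (5364) and 4046 to 4648 fell (4794). With a log2 change of 1 or more also required they were 5087, 2826 and 2261, and the count of differing age effects was 1556. Differing age effects (2548) came to 1879 to 2712 with single heterozygous libraries left out and to 1699 to 1982 with single wild-type ones, apart from 4118 without replicate 2 of wild type at 8 mpf; DESeq2 gave 3459. The cause was not tested. Library size alone gave 6664 higher and 3442 lower genes, upper quartile scaling 4394 and 6031. Same-numbered libraries of both ages did not deviate together (Pearson -0.018, 0.01 and 0.046), so the numbers were not taken to pair the libraries. The fit with a replicate block gave 9854 changed genes, 5265 higher and 4589 lower, 2344 differing age effects and cdkn1a at 0.20; among the genes named it lost the calls of amh and the low ESR2 copy. For cdkn1a the log2 fold change ran from 0.05 to 0.44 over all alternatives and from 0.10 to 0.40 with single libraries left out, and passed the test in none. Of 3346 values of 197 named genes, 3277 kept direction and call, 38 lost a call in 10 genes, 30 gained one, and 1 turned, MCM2 with library size alone (0.23). Among the calls gained were those of BAX, CYP17A1, FOS, PIWIL1 and opn7d with upper quartile scaling. CDK1, DNMT1, lrp13 and SMAD2 gained one with library size alone. Of 782 list medians 198 moved by over 1 SD between replicates. Depth limits genes near 0, such as amh, FSHR and STAR.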
